A study of Mus musculus with 18 samples.

Results

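Breast cancer cells of the mouse line 168FARN were compared after growth in spheroids with fibroblasts and after growth in spheroids alone. The comparison took 6 of the 18 libraries of the series, 3 of 168FARN alone and 3 of 168FARN mixed with cancer-associated fibroblasts (CAFs), and it was chosen by the sample titles and the labels for cocultured cells and genotype. The 168FARN cells carried GFP, and in the alone group they met no fibroblasts. In WT coculture they were mixed at 3 fibroblasts per cancer cell with MMTV-CAFs, primary fibroblasts taken from mammary tumours of MMTV-PyMT mice on an FVB/N background, in which the MMTV promoter drives the polyoma middle T oncogene. WT here means fibroblasts that carried a non-targeting guide RNA (sgNS), so they had been through the same CRISPR procedure as the sgPrrx1 fibroblasts, in which the transcription factor gene Prrx1 was deleted. The 3 libraries of 168FARN with sgPrrx1 fibroblasts are given beside the others where a level in them bears on a result. Per the study's methods, the spheroids were dissociated after about a week and the GFP-positive cancer cells were isolated by flow cytometry, and nothing in the sources used here says whether the 3 libraries of a group came from separate cultures, so the p-values measure the spread between these libraries, which may be technical.

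Fibroblasts of a tumour secrete collagens and other matrix, the proteases that remodel it, and growth factors and chemokines that act on nearby cancer cells. Cancer cells in contact with them are known to take up mesenchymal traits, to degrade matrix and to shift their metabolism. A sorted cancer cell fraction can also hold some fibroblasts or their RNA, and the abundant messages of fibroblasts, such as those of type I collagen, are then counted among the cancer cell reads. For that reason the genes were read in 3 bands by their mean level in 168FARN alone, where no fibroblast was present. Genes at 10 CPM or more (counts scaled to a common library size, written CPM) were clearly expressed without fibroblasts, genes under 0.1 CPM were at or near 0 without them, and the rest lay between. A gene at 10 CPM or more alone can also gain reads from fibroblast RNA, so the bands do not separate the sources of a rise.

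The 9 libraries of the line held from 48315037 to 68933002 counts each, with 3 libraries per group. Identity was checked on marker genes. Of 23 epithelial markers, 15 had too few reads to be tested, with 13 counts or fewer in each library, and Cdh1, Epcam, Krt5, Krt14 and Krt18 were among these. Krt8, a keratin of simple epithelia, was present at 330.5 ± 12.5 CPM alone (SD, n = 3), while the intermediate filament gene of mesenchymal cells, Vim, was at 2278 ± 58.6 CPM and the matrix glycoprotein gene Fn1 at 4769 ± 99.1 CPM. Of the 8 epithelial markers tested, 6 were between 0.1 and 10 CPM alone, led by Krt7 at 6.24 CPM, Elf3 at 5.36 CPM and Ocln at 3.88 CPM, and Krt19 had no read alone. In WT coculture 4 of the 8 were higher and 3 lower, where 33.4% of all genes tested were higher and 30.7% lower. The cells labelled as a breast cancer line thus held few reads of most epithelial markers and expressed mesenchymal genes before any fibroblast was added. Of 14 immune markers, 9 had 7 counts or fewer in each library of the comparison and were left untested, Ptprc, Adgre1, Itgam and Cd3e among them. The other 5 were tested, and 3 of them were at 10 CPM or more alone: Cd68 and Lyz2, of macrophages, were lower in WT coculture (23.9 to 14.8 CPM and 25.5 to 14.0 CPM) and Cd14, a coreceptor for lipopolysaccharide, was higher (37.9 to 44.8 CPM). Summed over the list, cells alone held from 84.9 to 90.9 CPM and those with WT fibroblasts from 74.6 to 75.6 CPM.

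Across all genes, 8676 of 13540 genes tested (64.1%) passed an adjusted p of 0.05 in edgeR's quasi-likelihood test, and most of these changes were small. Among the 9144 genes tested that were at 10 CPM or more alone, 6558 (71.7%) passed, 3095 higher (33.8%) and 3463 lower (37.9%) in WT coculture. Of the 6558, 5761 (87.8%) differed by less than 1.5-fold. Only 154 of the 9144 (1.68%) both passed and differed by at least 2-fold, 70 higher and 84 lower. For 74.1% of this band every WT coculture library lay above, or every one below, all alone libraries, so a gap between the groups sets no gene of it apart. With this many small changes past the threshold, the text below rests on the size of a change and gives shares of a list against 33.8% higher and 37.9% lower.

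The 3 bands behaved differently. In the middle band, 1602 of 3792 genes (42.2%) passed, 910 higher and 692 lower. Its genes held fewer reads, with a median of 1.37 CPM in WT coculture against 52.2 CPM at 10 CPM or more alone. The shares that passed therefore cannot be compared directly. Changes that passed were larger here, with 708 of at least 2-fold against 154 at 10 CPM or more alone. Under 0.1 CPM alone, 516 of 604 genes tested (85.4%) were higher in WT coculture and 0 were lower, as the band itself fixes: a gene near 0 alone passes the filter on low counts only if some coculture library holds it, and it has almost no room to fall. Their count is therefore a description and no evidence of a response.

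**Figure D1:**
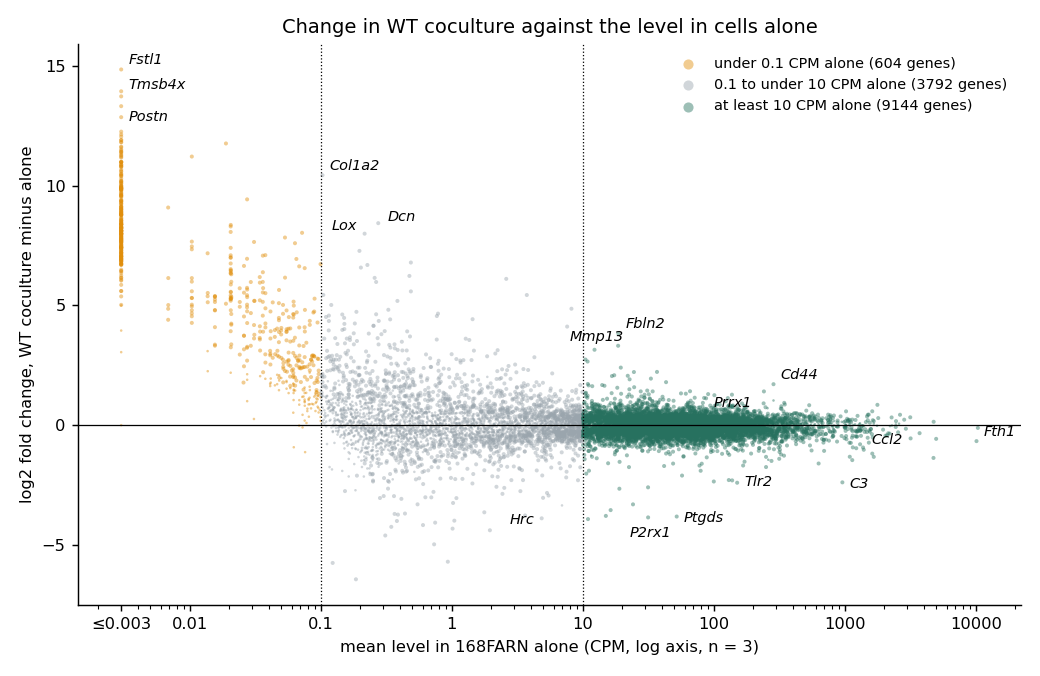
Each point is 1 of the 13540 genes tested. The horizontal axis is the mean CPM in the 3 alone libraries on a log axis, with genes at 0 drawn at its left end, and the vertical axis is the log2 fold change, WT coculture minus alone. Larger points passed the adjusted p of 0.05. Rises above 5 on the log2 scale lie in the bands below 10 CPM, and in the band at 10 CPM or more the changes run from -3.92 to 3.83.

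Of the 516 genes that were higher, 256 had no count in any alone library, 184 reached 1 CPM or more in WT coculture, and 13 reached 10 CPM or more. Leaving out predicted genes, clone names and pseudogenes, 503 of the 516 remained, and their summed level was from 10.8 to 12.1 CPM in cells alone, from 911 to 914 CPM with WT fibroblasts and from 194.6 to 196.5 CPM with sgPrrx1 fibroblasts. Over all 516 genes the sums were 920.8, 922.7 and 1142 CPM with WT fibroblasts and 435.5, 438 and 208.3 CPM with sgPrrx1 fibroblasts. Most of the gap between libraries of a group lay in 1 pseudogene, Atp6v0c-ps2, picked out after its values were seen, which can share reads with its parent gene Atp6v0c. It was at 218 CPM in WT coculture library 3 and at 229 and 228 CPM in sgPrrx1 coculture libraries 1 and 2, and at 0.0338 CPM or less in the other libraries. With WT fibroblasts the median level over the 516 genes was 0.671 CPM, and with sgPrrx1 fibroblasts it was 0.186 CPM. Because the genes were picked for being higher in WT coculture, these sums and medians favour WT over sgPrrx1 fibroblasts by the choice itself.

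Fstl1 (chromosome 16, 37777055 to 37836516, GRCm38), a secreted glycoprotein of mesenchymal cells, had no read alone and was at 64.2, 64.4 and 63.6 CPM in the WT coculture libraries. Against a floor of 3 counts per alone library it was at least 1129-fold higher. In sgPrrx1 coculture it was at 5.26 ± 0.332 CPM (SD, n = 3). Tnc (chromosome 4, 63959785 to 64047015), the matrix protein tenascin C, went from no read to 29.2, 28.2 and 31.0 CPM, at least 519-fold higher, and stood at 1.07 ± 0.312 CPM with sgPrrx1 fibroblasts. Postn (chromosome 3, 54359267 to 54391041), the matrix protein periostin, went from no read to 22.1, 23.1 and 21.3 CPM, at least 390-fold higher, and only 1 of the 3 sgPrrx1 libraries held any of its reads. These genes were present in every WT coculture library and in no alone library.

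Other genes of this band had a few reads alone. Timp3, an inhibitor of matrix proteases, had 2 counts in all over the alone libraries and was at 34.4, 33.5 and 35.7 CPM in WT coculture, a ratio of 2776 with a 95% counting interval from 768 to 22927. Igfbp7, which binds insulin-like growth factors, had 4 counts alone and a mean of 18.5 ± 0.941 CPM in WT coculture, a ratio of 744 (290 to 2733). Loxl2, which crosslinks collagen, had 11 counts alone and 18.4 ± 0.159 CPM in WT coculture, a ratio of 270 (151 to 541). Inhba, the subunit of activin A, had 9 counts alone and 13.2 ± 0.434 CPM in WT coculture. Cdh11, a cadherin of mesenchymal cells, had 10 counts alone and 12.4 ± 0.889 CPM in WT coculture, while in sgPrrx1 coculture it was at 0.113 ± 0.0997 CPM. The intervals cover counting error only.

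Some genes of this band are not particular to fibroblasts. Tmsb4x (chromosome X, 167207093 to 167213479), an actin-binding peptide found in most cell types, had no read in any library of 168FARN alone and was at 33.2, 34.2 and 34.9 CPM in WT coculture, at least 601-fold higher. In sgPrrx1 coculture it stood at 0.162 ± 0.0782 CPM. Slc25a4, the ADP and ATP carrier of mitochondria in muscle and many other cells, had no read alone and reached 17.0, 16.6 and 14.6 CPM with WT fibroblasts, at least 284-fold higher, and 4.76 ± 0.612 CPM with sgPrrx1 fibroblasts. Cdkn2a, the locus of the tumour suppressors p16 and Arf, likewise had no read alone and reached 9.52, 8.63 and 9.46 CPM with WT fibroblasts, at least 162-fold higher, and 2.94 ± 0.187 CPM with sgPrrx1 fibroblasts. Tmsb4x and Slc25a4 have processed copies elsewhere in the genome that could share their reads, so their levels are uncertain.

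The ratio between the cocultures differed from gene to gene. Mean levels in WT against sgPrrx1 coculture were 92.8 against 43.3 CPM for Dcn, 64.1 against 5.26 CPM for Fstl1, 52.7 against 5.04 CPM for Lox and 22.1 against 0.0223 CPM for Postn. These were chosen to show the range, after their values were seen. The sgPrrx1 fibroblasts themselves may express these genes at other levels than the WT fibroblasts, and the fibroblasts without cancer cells were not analysed here, so the number of fibroblasts in a library and the level of each gene per fibroblast cannot be told apart. The same holds for the cancer cells: in a bulk library, fewer cells of a type and less RNA per cell cannot be told apart.

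**Figure D2:**
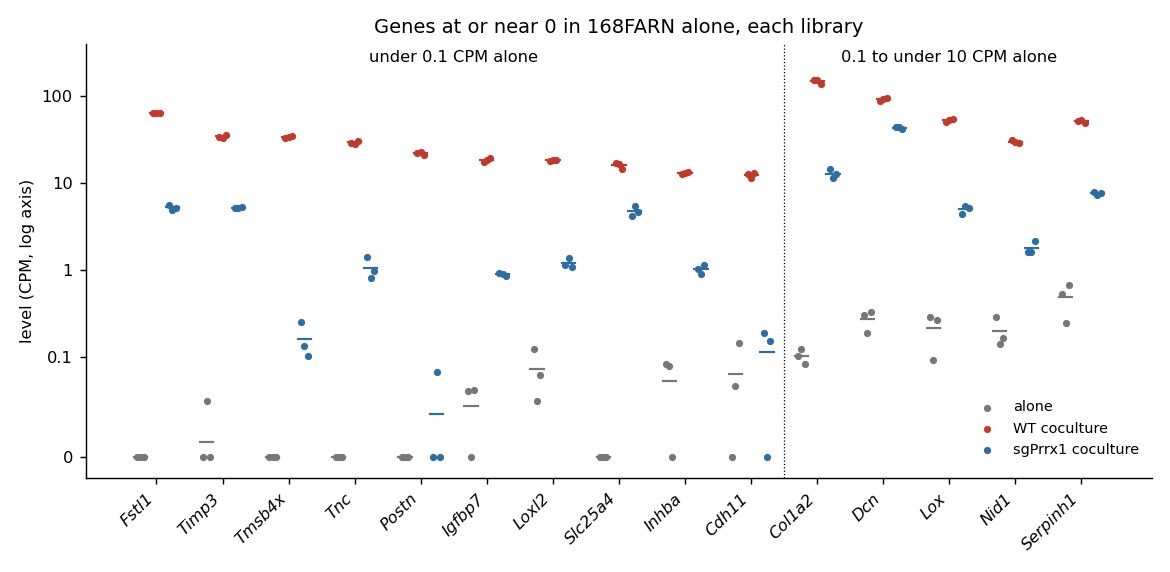
CPM in each library on a log axis, with 0 drawn at the lower end, for the 10 genes under 0.1 CPM alone with the highest level in WT coculture, pseudogenes, predicted genes and clone names left out, and the 5 largest rises between 0.1 and 10 CPM alone. Points are libraries, bars are group means (n = 3). The 3 WT coculture libraries lie close together and above those of both other groups for all 15 genes. All 15 were picked for their level or rise in WT coculture, which favours this order.

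Fibroblast genes that were not quite at 0 alone rose the most in the middle band. Col1a2 (chromosome 6, 4505618 to 4541543), a chain of type I collagen, was at 0.103, 0.125 and 0.0824 CPM alone and at 152.9, 152.4 and 139.3 CPM in WT coculture. Its mean of 0.103 CPM alone lay just above the limit of the near-0 band, while Osr1, a transcription factor of connective tissue, lay just below it at 0.0825 CPM and reached 1.699 ± 0.168 CPM. Dcn (chromosome 10, 97479500 to 97518163), the proteoglycan decorin, went from 0.308, 0.187 and 0.330 CPM alone to 89.2, 94.1 and 95.1 CPM. Lox, the collagen crosslinking enzyme, Nid1, a basement membrane linker, and Serpinh1, the collagen chaperone, rose by 7.99, 7.27 and 6.79 on the log2 scale. Further collagens of this band were Col1a1, from 3.74 ± 0.360 to 160.7 ± 11.5 CPM, and Col3a1, from 8.20 ± 1.12 to 239.1 ± 18.3 CPM.

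Among genes of the middle band with at least 100 counts on average, the largest falls were in Hrc, Batf, Akr1c14, Acox2 and Atoh8. Hrc, a calcium-binding protein of the sarcoplasmic reticulum, was at 5.28, 5.14 and 4.16 CPM alone and at 0.455, 0.263 and 0.244 CPM in WT coculture, a log2 fold change of -3.89 (SE 0.241, adjusted p = 1.27e-07). Batf, a leucine zipper partner of Jun proteins, fell from 3.63 ± 0.220 to 0.261 ± 0.0822 CPM (SD, n = 3). Atoh8, a basic helix-loop-helix factor, fell from 5.34 ± 0.194 to 0.744 ± 0.0883 CPM and was at 1.78 ± 0.455 CPM in sgPrrx1 coculture.

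The list of 25 fibroblast identity genes moved with the bands. The summed level of the whole list ran from 1381 to 1400 CPM in cells alone, from 2713 to 2741 CPM with WT fibroblasts and from 1918 to 1926 CPM with sgPrrx1 fibroblasts. Most of the sum in cells alone came from Pdpn, which did not pass in WT coculture (values below), so the sum understates the rise of the other members. Postn, Fbln1 and Thy1 had no read alone and Lum, Fap and Tcf21 had too few reads anywhere to be tested (at most 12 counts in a library). Of the 22 tested, 18 were higher, 1 lower and 3 did not pass, against 33.4% higher and 30.7% lower over all genes tested, but the 4 members under 0.1 CPM alone had almost no room to fall. Thy1, a surface marker of many fibroblasts, reached only 0.485 ± 0.0686 CPM in WT coculture. Xist, the RNA that coats the inactive X chromosome of female cells, went from 0.488 ± 0.154 to 22.8 ± 1.06 CPM and stood at 3.19 ± 0.328 CPM with sgPrrx1 fibroblasts. Of the contractile and smooth muscle list, Acta2, the actin of myofibroblasts, went from 0.328 ± 0.0628 to 9.18 ± 0.700 CPM and was at 0.281 ± 0.0817 CPM in sgPrrx1 coculture, and Tagln, Cnn1 and Myl9 were under 0.1 CPM alone and reached 5.30, 2.07 and 2.83 CPM. How much of any of these rises was fibroblast RNA was not tested.

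Several of the listed fibroblast genes were expressed by 168FARN alone, and among the 10 at 10 CPM or more alone 7 were higher, 1 lower and 2 did not pass, with a median log2 fold change of 0.64 against -0.02 over all genes of the band. Pdgfra, a receptor for platelet-derived growth factor, went from 69.29 ± 0.534 CPM alone to 131.4 ± 2.03 CPM in WT coculture, a log2 fold change of 0.92 (SE 0.0252, adjusted p = 2.27e-10). Col5a1, a chain of type V collagen, went from 56.2 ± 2.19 to 141 ± 4.23 CPM and was at 57.7 ± 0.212 CPM in sgPrrx1 coculture. Pdgfrb and Pdpn did not pass, at 43.0 and 1010 CPM alone against 40.6 and 1007 CPM in WT coculture, but both passed with the correction for transcript length and GC content described below, at log2 fold changes of -0.20 and 0.12.

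The largest rise among genes clearly expressed alone was in Fbln2. Fbln2 (chromosome 6, 91212460 to 91272540), the matrix protein fibulin 2, was at 18.5, 19.2 and 18.3 CPM alone and at 269.5, 268 and 258.9 CPM in WT coculture, 14.2-fold higher (log2 fold change 3.83, SE 0.0338, adjusted p = 1.09e-13). In sgPrrx1 coculture it was at 41.7 ± 0.608 CPM. Its lowest WT coculture library was far above its highest alone library. Fbln2 and Col6a3, which also rose in this band, are both in the fibroblast identity list. Collagen genes of that list that were under 10 CPM alone reached similar levels: Col1a2 had means of 0.103 CPM alone, 148.2 CPM with WT and 12.9 CPM with sgPrrx1 fibroblasts, and Col3a1 had means of 8.20, 239.1 and 32.7 CPM. Fbln2 and Col6a3 were likewise higher with WT than with sgPrrx1 fibroblasts. The part of fibroblast RNA in the rises of this band, here and in the lists below, was not tested.

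Other large rises ran from 8.86-fold for Mmp13, described with the proteases, to 3.85-fold for Plau. Ankrd1 (chromosome 19, 36111965 to 36119844), a nuclear ankyrin repeat protein induced by stretch, was at 10.9, 10.3 and 10.3 CPM alone and at 67.7, 74.8 and 67.6 CPM in WT coculture. Egr1, a zinc finger factor of the immediate early response, was at 10.7, 11.5 and 10.5 CPM alone and at 67.7, 65.4 and 73.3 CPM in WT coculture (adjusted p = 1.42e-11). Nt5e, the ecto-enzyme CD73 that makes adenosine, was at 20.2, 18.9 and 19.5 CPM alone and at 103.6, 105.1 and 100.9 CPM in WT coculture. Each of these was also above the alone level in sgPrrx1 coculture, at 34.03, 21.2 and 63.8 CPM. Col6a3, a chain of type VI collagen, rose from 36.9 ± 0.663 to 172.2 ± 7.18 CPM, and in sgPrrx1 coculture it was at 45.8 ± 0.885 CPM. Sema7a, a membrane-bound semaphorin, rose from 22.1 ± 0.851 to 92.1 ± 4.96 CPM and was at 95.6 ± 0.574 CPM in sgPrrx1 coculture, and the difference between the cocultures missed the threshold (log2 fold change 0.05, adjusted p = 0.279), which 70.1% of the genes of the band passed. Tmcc3, a membrane protein of the endoplasmic reticulum, rose from 16.7 ± 1.09 to 69.2 ± 0.270 CPM. Mmp2 lay just below the limit of the band at 9.56 ± 0.353 CPM alone and rose to 30.5 ± 2.06 CPM, and Ankrd1 lay just inside it at 10.5 ± 0.364 CPM.

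**Figure D3:**
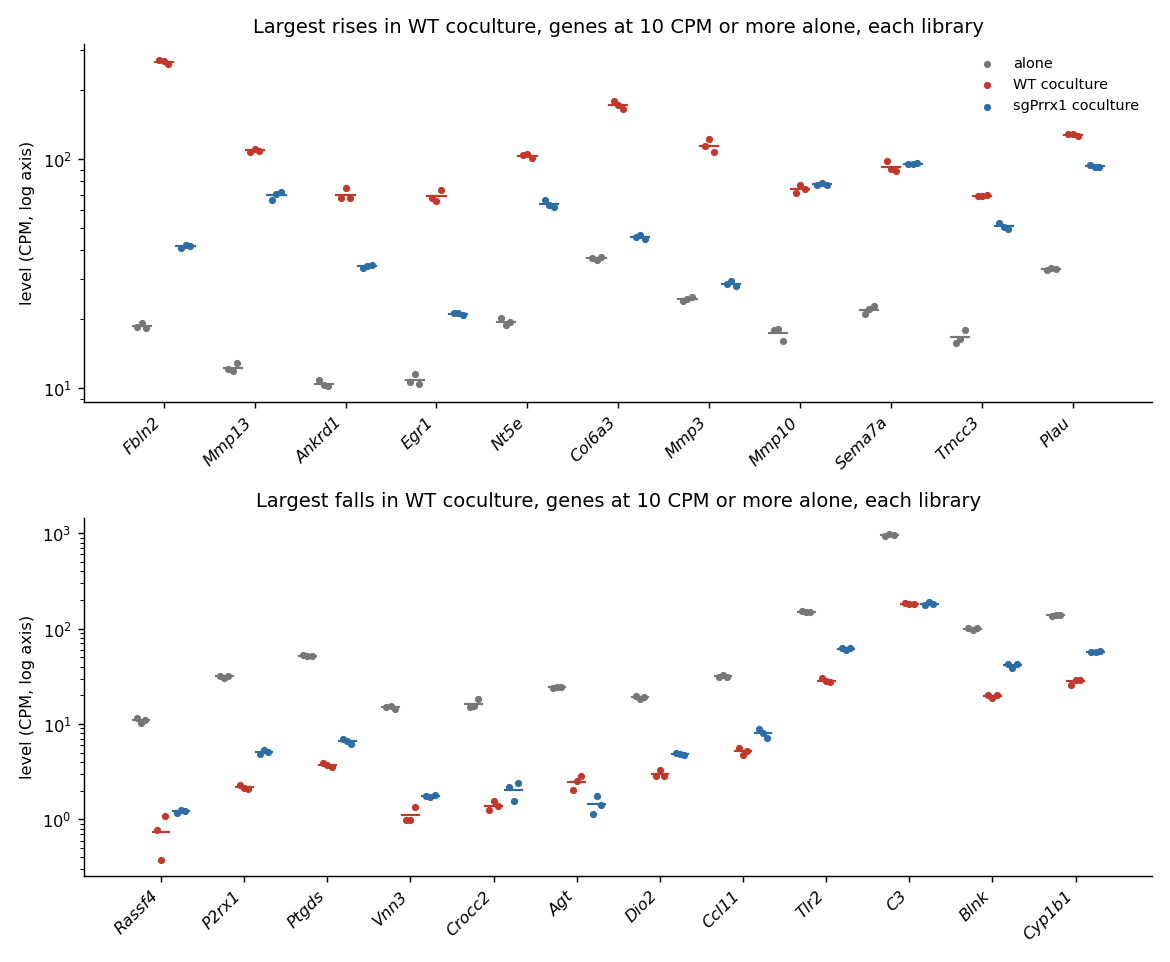
CPM in each library on log axes for 11 of the 12 largest rises (top) and the 12 largest falls (bottom) among genes at 10 CPM or more alone. Points are libraries and bars are group means (n = 3). Mmp10 and Sema7a stood at about the same level in both cocultures, and so did C3 among the falls, whereas Fbln2, Col6a3 and Mmp3 were highest with WT fibroblasts.

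The largest falls among genes clearly expressed alone reached 15.1-fold. Rassf4, a Ras association domain protein, fell the most, from 11.6, 10.3 and 11.1 CPM alone to 0.782, 0.380 and 1.08 CPM, 15.1-fold lower (log2 fold change -3.92, SE 0.227, adjusted p = 7.72e-08). P2rx1 (chromosome 11, 72999056 to 73015200), an ATP-gated channel, was at 32.2, 30.7 and 31.7 CPM alone and at 2.29, 2.15 and 2.11 CPM in WT coculture. Ptgds (chromosome 2, 25466709 to 25470110), which makes prostaglandin D, was at 52.3, 52.2 and 52.0 CPM alone and at 3.88, 3.71 and 3.51 CPM in WT coculture. All 3 genes were far lower in every WT coculture library than alone, and with sgPrrx1 fibroblasts they stood at 1.22, 5.06 and 6.58 CPM.

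The most abundant of the 12 largest falls was C3. C3 (chromosome 17, 57203967 to 57228136), the central complement component, was at 945, 984 and 947.5 CPM alone and at 185, 182 and 183.4 CPM in WT coculture, 5.23-fold lower (adjusted p = 8.26e-13). It stood at 181.7 ± 6.57 CPM in sgPrrx1 coculture, and the difference between the cocultures missed the threshold (log2 fold change -0.01, adjusted p = 0.696). Tlr2, a receptor for bacterial lipoproteins, was at 151.4, 150.9 and 150.4 CPM alone and at 30.0, 28.1 and 27.5 CPM in WT coculture. Blnk, an adaptor of B cell receptor signalling, fell from 100.1 ± 3.27 to 19.6 ± 0.843 CPM and Ccl11, the chemokine eotaxin, from 31.5 ± 0.760 to 5.22 ± 0.433 CPM. Tlr2 and Blnk stood higher in sgPrrx1 than in WT coculture, at 61.4 and 41.4 CPM.

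The remaining large falls ran from 13.8-fold for Vnn3 to 4.94-fold for Cyp1b1. Agt, the precursor of angiotensin, was at 24.2, 24.2 and 24.2 CPM alone and at 2.06, 2.53 and 2.82 CPM in WT coculture, 9.88-fold lower. Dio2, which activates thyroid hormone, fell from 19.0 ± 0.826 to 3.02 ± 0.255 CPM. Cyp1b1, a cytochrome P450 of steroid and hydrocarbon metabolism, fell from 138.2 ± 2.79 to 28.0 ± 1.93 CPM. Vnn3, a pantetheinase family member, and Crocc2, a ciliary rootlet protein, fell 13.8-fold and 11.7-fold.

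**Figure D4:**
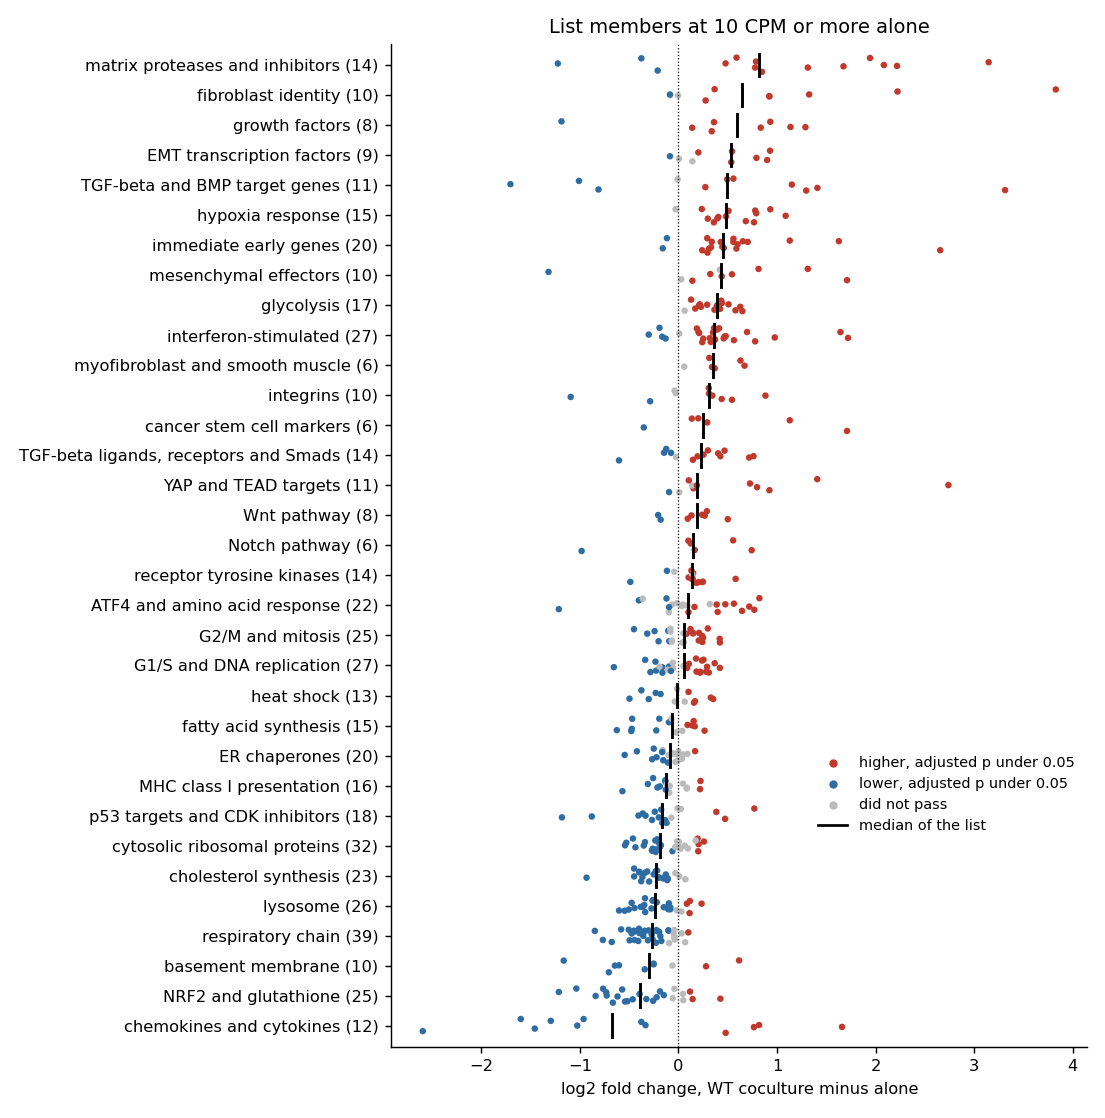
Log2 fold change, WT coculture minus alone, of the members at 10 CPM or more alone of each list with at least 5 such members, with the number of members in brackets. Points are genes coloured by the test, bars are the list medians. Matrix proteases, growth factors, hypoxia and glycolysis genes lie mostly to the right, and chemokines, NRF2 genes, basement membrane, respiratory chain and cholesterol genes mostly to the left.

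Most matrix proteases were higher. Of the 14 matrix proteases and inhibitors at 10 CPM or more alone, 11 were higher and 3 lower, with a median log2 fold change of 0.82. Stromelysins and collagenase led: Mmp13 (chromosome 9, 7272514 to 7283333) was at 12.1, 11.9 and 12.9 CPM alone and at 107.8, 110.3 and 108.7 CPM in WT coculture, 8.86-fold higher (adjusted p = 1.03e-12). Mmp3 (chromosome 9, 7445822 to 7455975) was at 24.1, 24.6 and 25.0 CPM alone and at 114.4, 121.7 and 107 CPM in WT coculture. Mmp10 (chromosome 9, 7502342 to 7510242) was at 17.98, 18.08 and 16.1 CPM alone and at 70.8, 76.9 and 73.8 CPM in WT coculture. All 3 genes rose, but with sgPrrx1 fibroblasts their levels parted: Mmp3 stood at 28.5 ± 0.679 CPM, Mmp13 at 69.6 ± 2.86 CPM and Mmp10 at 77.5 ± 1.24 CPM.

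Membrane-bound and plasmin-linked proteases rose with them. Mmp14, which sits in the membrane and activates Mmp2, was at 59.7, 61.6 and 62.3 CPM alone and at 151.5, 150.4 and 154.5 CPM in WT coculture, 2.49-fold higher. Mmp11 rose from 14.1 ± 0.248 to 44.9 ± 2.47 CPM. Plau, the urokinase that makes plasmin, rose from 33.1 ± 0.197 to 127.5 ± 1.66 CPM, and its receptor gene Plaur by 0.59 on the log2 scale. The 3 that fell were Mmp9, Timp2 and Adamts4. Mmp9, a gelatinase, was at 330.8, 324.6 and 324.3 CPM alone and at 140.6, 138.4 and 140.7 CPM in WT coculture, 2.33-fold lower (adjusted p = 1.98e-11).

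Because Mmp3, Mmp10 and Mmp13 lie in the same cluster on chromosome 9 and all rose, the bases before their starts are shown, with the AP-1 sequence in capitals. AP-1 factors are dimers of Fos and Jun proteins that bind TGAGTCA, which reads TGACTCA on the other strand. The stretches are the 120 bases before each gene's start in RefSeq annotation of GRCm38.p6, read 5′ to 3′ on the plus strand, at chr9:7445702-7445821 for Mmp3, chr9:7502222-7502341 for Mmp10 and chr9:7272394-7272513 for Mmp13.
Mmp3: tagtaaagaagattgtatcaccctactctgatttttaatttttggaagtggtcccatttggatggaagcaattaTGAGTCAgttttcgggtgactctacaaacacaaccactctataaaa
Mmp10: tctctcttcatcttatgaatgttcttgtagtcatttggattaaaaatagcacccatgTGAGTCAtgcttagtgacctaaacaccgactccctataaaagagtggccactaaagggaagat
Mmp13: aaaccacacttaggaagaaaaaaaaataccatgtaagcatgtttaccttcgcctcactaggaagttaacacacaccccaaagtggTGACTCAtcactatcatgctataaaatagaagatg

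The sequence began 46 bases before the start in Mmp3, 63 in Mmp10 and 35 in Mmp13. It was found on either strand in 5.95% of 27025 promoters of 300 bases and in 4.49% of the 7432 genes at 10 CPM or more alone that had a promoter. Among genes of this band that rose at least 2-fold, 5 of 48 with a promoter (10.4%) held it, and among those that fell at least 2-fold 6 of 60 (10.0%) did. A match is a description of these letters and not of a bound factor.

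Most genes of the immediate early response were higher. Of 20 immediate early genes at 10 CPM or more alone, 18 were higher and 2 lower, with a median log2 fold change of 0.45. Jun, Junb, Fosb, Fosl1 and Fosl2, all AP-1 members, rose by 0.60, 0.56, 0.65, 0.46 and 0.33 on the log2 scale, and Fos by 0.24. Dusp5, a phosphatase that acts on ERK, was at 12.3, 11.3 and 11.9 CPM alone and at 35.6, 34.1 and 39.9 CPM in WT coculture, 3.09-fold higher. Myc, a regulator of growth, was at 141.2, 109.3 and 133.8 CPM alone and at 236.5, 283.6 and 320.8 CPM in WT coculture, with a wider spread than most genes (SE 0.125, adjusted p = 1.27e-05). The 2 that fell, Dusp1 and Ier5, did so by 0.12 and 0.16 on the log2 scale.

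Most growth factor genes were higher too. Of the 8 at 10 CPM or more alone, 7 were higher and 1 lower. Hbegf and Areg, ligands of the EGF receptor, were 2.20-fold and 2.44-fold higher, and in sgPrrx1 coculture they stood at 170.2 and 82.6 CPM against 185.7 and 78.1 CPM in WT coculture. Vegfa, which drives vessel growth, went from 84.8, 82.1 and 80.9 CPM alone to 153.8, 158.2 and 161 CPM and was at 85.5 ± 0.293 CPM in sgPrrx1 coculture. Igf2, a fetal growth factor, fell, but its libraries varied widely: 1426, 1282 and 2159 CPM alone and 580.4, 549.7 and 1009 CPM in WT coculture (adjusted p = 0.00175). Egfr itself had no read alone and reached 2.53 CPM in WT coculture.

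Among TGF-beta and BMP targets the Id genes fell while most others rose. Of 11 TGF-beta and BMP target genes at 10 CPM or more alone, 7 were higher, 3 lower and 1 did not pass. The 3 lower genes were the Id genes, inhibitors of basic helix-loop-helix factors that BMP signals induce: Id2 went from 40.6, 41.8 and 43.0 CPM alone to 12.99, 12.82 and 12.66 CPM (3.26-fold lower), Id3 from 74.6 ± 2.60 to 37.0 ± 3.20 CPM and Id1 from 76.6 ± 1.08 to 43.6 ± 3.56 CPM. In sgPrrx1 coculture Id1 was at 76.7 ± 0.401 CPM, near its level alone. Among the higher genes, the inhibitory Smad gene Smad7 went from 29.4, 25.5 and 28.3 CPM to 74.1, 72.8 and 73.8 CPM, Skil was 2.22-fold higher and the transcriptional repressor gene Bhlhe40 2.46-fold higher. Of the ligands, receptors and Smads, 9 of 14 were higher and 4 lower, and the largest changes were rises of 0.76 in the receptor gene Acvr1 and 0.72 in Ltbp1, which stores the ligand in matrix, and a fall of 0.60 in the coreceptor gene Tgfbr3, all on the log2 scale.

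Most transcription factors of the epithelial to mesenchymal transition (EMT) were higher by modest amounts. Of 9 at 10 CPM or more alone, 6 were higher, 1 lower and 2 did not pass. Snai1, a repressor of E-cadherin, was at 32.6, 31.5 and 29.5 CPM alone and at 54.5, 57.8 and 66.0 CPM in WT coculture, 1.91-fold higher. Zeb2 and Zeb1, of the same role, were 1.87-fold and 1.45-fold higher. Prrx1, present in the cancer cells themselves and not deleted in them, rose by 0.54 on the log2 scale (SE 0.0260). Sox9, a factor of progenitor cells, rose from a mean of 44.2 to one of 76.6 CPM. Twist2 was the gene called lower, by 0.09 on the log2 scale, and its sign turned to 0.02 with the correction for transcript length and GC content.

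Mesenchymal effector genes did not move one way. Of 10 at 10 CPM or more alone, 7 were higher, 1 lower and 2 did not pass. Cd44, the hyaluronan receptor that marks many stem-like cancer cells, was at 281.5, 284.6 and 291.3 CPM alone and at 942.3, 923.5 and 940.8 CPM in WT coculture, 3.27-fold higher. The sgPrrx1 libraries, which shared the fit, stood at 369.5, 797.8 and 360.1 CPM, and the SE of the fold change was 0.245. S100a4, a calcium-binding protein often used as a fibroblast and metastasis marker, went the other way, from 1047, 1169 and 1060 CPM alone to 441, 460 and 413 CPM, 2.49-fold lower. Fn1 changed from 4769 to 5263 CPM, a log2 fold change of 0.14 with an adjusted p of 6.62e-05, whereas a fit corrected for transcript length and GC content gave -0.02 with an adjusted p of 0.428. Of 6 stem cell marker genes, 5 were higher and 1 lower, Cd44 and Myc among the higher and Bmi1 the lower.

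Most basement membrane genes were lower, and most of the integrins that bind matrix were higher. Of 10 basement membrane genes at 10 CPM or more alone, 7 were lower and 2 higher. Col4a5, a type IV collagen chain, was at 129.7, 132.1 and 122.8 CPM alone and at 56.9, 62.5 and 52.2 CPM in WT coculture, 2.24-fold lower. Lama5, a laminin chain, and Hspg2, the proteoglycan perlecan, were 1.52-fold and 1.56-fold lower and stood lower still in sgPrrx1 coculture, at 434 and 393 CPM against 474 and 485 CPM. Lamb1, a laminin chain, was among the higher genes. Of 10 integrin genes, 6 were higher and 2 lower. Itgb5 rose from 105.8 ± 2.25 to 195.2 ± 8.12 CPM, and Itga8 fell from 31.5 to 14.8 CPM.

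Of 11 YAP and TEAD target genes, which respond to cell stretch and density, 8 were higher, 1 lower and 2 did not pass. Ccn1, a matricellular protein, was at 244.8, 238.2 and 241.5 CPM alone and at 632, 642 and 649.6 CPM in WT coculture, 2.66-fold higher. Amotl2, Ajuba and Lats2 rose by 0.92, 0.80 and 0.73 on the log2 scale. With the correction for length and GC content 5 were higher and 1 was lower, and F3, the gene called lower, turned to a log2 fold change of 0.06.

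Most chemokines clearly expressed alone were lower, but Cxcl12 was higher. Of 12 chemokines and cytokines at 10 CPM or more alone, 8 were lower and 4 higher, with a median log2 fold change of -0.67. Ccl2, which attracts monocytes, was at 1437, 1354 and 1396 CPM alone and at 653.7, 679.1 and 723.7 CPM in WT coculture, 2.04-fold lower (adjusted p = 8.73e-10). Ccl7, its neighbour on chromosome 11, was at 623.9, 616.8 and 654.2 CPM alone and at 207.7, 214.3 and 203.5 CPM in WT coculture. Cxcl5 and Cxcl1, which attract neutrophils, were 2.75-fold and 1.95-fold lower. In sgPrrx1 coculture Ccl2 and Cxcl1 stood at 1583 and 1152 CPM, near their levels alone of 1396 and 1224 CPM.

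The cytokines that rose were Cxcl12, Lif, Il11 and Csf1. Cxcl12, a chemokine that stromal cells make in quantity, was at 11.3, 11.3 and 10.6 CPM alone and at 36.5, 34.9 and 33.6 CPM in WT coculture, 3.16-fold higher, and its sgPrrx1 coculture libraries were at 11.01, 10.4 and 11.6 CPM. Lif and Il11, cytokines of the IL-6 family, rose by 0.82 and 0.77 on the log2 scale. Csf1, the growth factor of macrophages, rose from 258.9 ± 8.10 to 361 ± 9.19 CPM.

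Most interferon-stimulated genes were higher. Of 27 at 10 CPM or more alone, 22 were higher, 4 lower and 1 did not pass, with a median log2 fold change of 0.36. Ifit3, which blocks viral RNA, was at 11.18, 11.04 and 10.6 CPM alone and at 35.1, 36.5 and 36.8 CPM in WT coculture, 3.30-fold higher. Zbp1, a sensor of nucleic acids, was at 15.5, 13.7 and 14.8 CPM alone and at 46.8, 43.2 and 47.1 CPM in WT coculture. In sgPrrx1 coculture Ifit3 stood at 70.2 ± 2.01 CPM and Zbp1 at 49.1 ± 1.07 CPM. Summed over the list, cells alone held from 1541 to 1561 CPM, those with WT fibroblasts from 1819 to 1883 CPM and those with sgPrrx1 fibroblasts from 2779 to 2784 CPM. Of the 16 MHC class I presentation genes, by contrast, 2 were higher, 8 lower and 6 did not pass, and with the correction for length and GC content 2 were higher and 5 lower.

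Glycolysis and hypoxia response genes were higher almost throughout. Of 17 glycolysis genes at 10 CPM or more alone, 16 were higher and none was lower, and Ldha, which makes lactate, did not pass. With a median log2 fold change of 0.39 the rises were modest. Hk2, which phosphorylates glucose, was at 105.1, 104.2 and 102 CPM alone and at 160.8, 163.7 and 156.6 CPM in WT coculture, 1.55-fold higher. The glucose transporter gene Slc2a1 was 1.32-fold higher. Of 15 hypoxia response genes, 13 were higher and none lower. Hif1a, the oxygen-sensitive factor, was at 329.8, 331.4 and 323.4 CPM alone and at 554, 562.1 and 586 CPM in WT coculture, 1.73-fold higher, and P4ha2, which hydroxylates collagen, 2.13-fold higher. Vegfa, Slc2a1 and Pdk1 each stand in the hypoxia list and in another list and were counted in both.

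Most NRF2 and glutathione genes, which serve antioxidant defence, were lower. Of 25 NRF2 and glutathione genes, 18 were lower, 3 higher and 4 did not pass, with a median log2 fold change of -0.39. Fth1, the ferritin heavy chain, was at 10256, 10157 and 9970 CPM alone and at 6170, 6147 and 6849 CPM in WT coculture, 1.59-fold lower. Gpx4, which removes lipid peroxides, was at 696, 693.6 and 672.8 CPM alone and at 409.9, 417.8 and 418.5 CPM in WT coculture, 1.66-fold lower. Slc7a11, the cystine transporter, was 2.32-fold lower and stood at 45.02 ± 1.98 CPM in sgPrrx1 coculture against 46.3 ± 0.699 CPM alone. Hmox1, Sod1 and Tkt were the 3 higher genes.

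Most cholesterol synthesis genes were lower by small amounts. Of 23 at 10 CPM or more alone, 20 were lower and none higher, with a median log2 fold change of -0.23. Tm7sf2, a sterol reductase, fell the most of the list, 1.91-fold. Of 15 fatty acid synthesis genes, 5 were higher and 7 lower, or 2 higher and 7 lower with the correction for length and GC content. Of 26 lysosome genes, 20 were lower and 4 higher, with Ctsd, Lamp2 and Grn among the lower.

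Most genes of the p53 list were lower. Of 18 p53 targets and CDK inhibitors, 12 were lower, 3 higher and 3 did not pass. Fas, a death receptor, was at 69.6, 75.2 and 72.5 CPM alone and at 31.7, 32.6 and 31.4 CPM in WT coculture, 2.27-fold lower, and Trp53inp1 fell by 0.88 on the log2 scale. Cdkn1a, the p53 target that stops the cycle, did not pass, with means of 299.8 and 298.2 CPM. The cell cycle lists moved both ways: 13 of 27 genes of G1/S and DNA replication were higher and 9 lower, and 12 of 25 genes of G2/M and mitosis were higher and 6 lower, with medians of 0.05 and 0.06.

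Lists of short genes need another value beside them. In WT coculture the change depended on transcript length: the median log2 fold change against alone was -0.27 over 440 genes with a longest coding transcript of up to 1000 bases, -0.13 from 1000 to 2000 bases, -0.03 from 2000 to 3000, 0.04 from 3000 to 5000 and 0.10 over 5000 bases. In sgPrrx1 coculture against the same alone libraries the medians were 0.09, 0.03, -0.02, -0.03 and -0.03. Length was known for 91.6% of the genes at 10 CPM or more alone. What gave this trend was not tested.

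**Figure D5:**
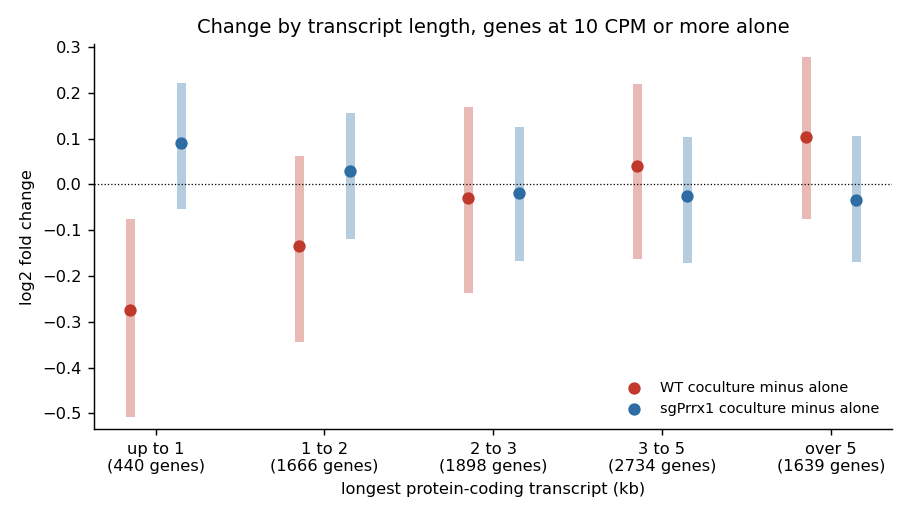
Median (point) and middle 50% (bar) of the log2 fold change against alone over genes at 10 CPM or more alone, by the length of the longest protein-coding transcript. Both comparisons use the same 3 alone libraries. In WT coculture the median climbs from -0.27 in the shortest class to 0.10 in the longest, while in sgPrrx1 coculture it goes from 0.09 to -0.03.

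Ribosomal protein and respiratory chain genes are short, with median lengths of 912 and 1046 bases. Of 32 ribosomal protein genes, 18 were lower and 4 higher (median log2 fold change -0.18), but once an offset took out the trend with length and GC content within each library, 8 were lower and 15 higher (median 0.07), so no direction can be given for them. Ribosomal protein genes also share reads with processed pseudogenes. Of 39 respiratory chain genes, 31 were lower and 1 higher, with a median of -0.27, and with the offset 17 were lower and 9 higher, with a median of -0.06. Ndufa4, of the last respiratory complexes, was at 365.6, 359.6 and 361.5 CPM alone and at 200.9, 207.9 and 194.9 CPM in WT coculture, and its log2 fold change was -0.85, or -0.41 with the offset. The chemokine genes are short as well, with a median of 1460 bases, and with the offset 8 of 12 were still lower and 4 higher (median -0.46). The glycolysis, hypoxia, NRF2, cholesterol and interferon lists had 17, 13, 4, 1 and 24 genes higher and 0, 1, 17, 17 and 1 lower with the offset.

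Other lists gave smaller or mixed changes. Of 22 ATF4 and amino acid response genes, 10 were higher, 4 lower and 8 did not pass. Of 20 endoplasmic reticulum chaperone genes, 8 were lower and 1 higher, and without WT coculture replicate 3 the number that passed went from 9 to 14. Of 13 heat shock genes, 5 were higher and 5 lower. Of 6 Notch pathway genes, 5 were higher and 1, Notch1, lower, but with the length offset 3 were higher and 2 lower. Of 8 Wnt pathway genes, 6 were higher and 2 lower, with Tcf7l1 the furthest up at 0.50 on the log2 scale. Of 14 receptor tyrosine kinase genes, 10 were higher, 2 lower and 2 did not pass, led by Epha2 with a rise of 0.58, and with the length offset 4 were higher and 3 lower.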

How the data were processed

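RNA was sequenced from 9 libraries of sorted 168FARN cells, 3 per group, of which 6 were compared. The authors trimmed reads with Trimmomatic, aligned them to mm10 with STAR, indexed the alignments in samtools and obtained counts per gene from HTSeq, and the deposited table holds whole-number counts for 24455 genes. No column of the table was left unused (0 columns). The study's methods also name a batch correction with ComBat-seq after the counting, without saying whether it was applied to these libraries, so the counts may be adjusted ones, and for 72 genes with reads the count was identical across the 9 libraries. The strand setting is not given in the sources used here. Library totals ran from 48315037 to 68933002. Groups were taken from the sample labels. In R 4.3.3, edgeR 4.0.16 (TMM scaling, quasi-likelihood test, Benjamini-Hochberg adjustment) was fitted to all 9 libraries, so the groups share 1 estimate of the spread, and 13540 genes passed the filter on low counts. The scripts were tested on simulated counts. All adjusted p-values are from that test unless another is named. DESeq2 1.42.0, other scalings, filters and limits, the replicate number as a block, the 6 libraries alone and each library left out were the alternatives. An offset for length and GC content per library was added after the data were seen.

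The members of the comparison and the gene lists were chosen with earlier results of these data known. Genes were named by rule: the 12 largest rises and 12 largest falls at 10 CPM or more alone that passed and did not overlap, the 10 highest in WT coculture under 0.1 CPM alone, the 5 largest rises and falls between with at least 100 counts on average, Prrx1, and list members, with predicted genes, clone names and pseudogenes left out. Symbols were matched to RefSeq (24288 of 24455), and 27 names had turned into dates. Promoters and coordinates are from RefSeq on GRCm38.p6 and lengths from the longest protein-coding transcript. Counting intervals are exact at 95%, and bounds use a floor of 3 counts per library. A few genes that these rules or lists cover are not reported here.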

Additional observations from a re-analysis of the deposited data

How the results depend on the processing

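The 45 genes named by rule kept their direction and side of the threshold in all 661 gene-by-alternative fits. Nearly all were picked for large changes or high levels in these same libraries, so this outcome was largely fixed by the choice. With limits of 0.5 and 20 CPM in place of 0.1 and 10, 791 genes near 0 alone were higher against 516, as wider limits hold more genes. With the length and GC offset, 7 receptor tyrosine kinase genes passed against 12. Leaving out 1 library at a time gave 8142 to 8460 genes in all, 6182 to 6446 at 10 CPM or more, 504 to 544 under 0.1 CPM, 1418 to 1489 between, 11 to 12 receptor tyrosine kinase genes, and 9 to 14 endoplasmic reticulum chaperone genes against 9, the highest without WT coculture replicate 3; the cause was not tested. The replicate number as a block gave 8553 genes in all and changed none of these counts by 1.5 times; same-numbered libraries did not deviate together (mean correlation -0.01), so the numbers do not pair the samples, and 2 libraries correlated best with their own number. The share of calls at 10 CPM or more that were higher was 47.2%, and from 46.1% to 52.3% over the alternatives. A minimum of 10 counts in every library leaves no gene under 0.1 CPM alone. At this depth a gene with no read alone is bounded only by its floor.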
